A study of Mus musculus with 4 samples.

Results

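The respiratory chain genes described here are the 97 gene symbols of 25804 in the deposited matrices whose names follow the pattern of the subunits of complexes I to V: Nduf subunits with a letter a, b, c, s or v, Sdha to Sdhd, symbols that start with Uqcr, Cox4 to Cox8 subunits, symbols that start with Atp5, and the mt-Nd, mt-Co, mt-Cytb and mt-Atp genes. They were chosen by name alone, in all 4 libraries of the study. Of these, 84 are encoded in the nucleus and 13 on the mitochondrial chromosome. Complex I had 37 nuclear and 7 mitochondrial members, complex II 4 nuclear ones, complex III 8 and 1, complex IV 18 and 3, and complex V 17 and 2. Ndufa4 is counted here with complex I after its name, although it has since been assigned to complex IV, and Cyc1, Cycs, Ndufab1 and Atpif1 fall outside the name pattern.

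The respiratory chain moves electrons from NADH and succinate to oxygen through complexes I to IV and pumps protons across the inner mitochondrial membrane. Complex V, the ATP synthase, lets the protons flow back and makes ATP. Complexes I, III, IV and V are built from subunits of both genomes, so nuclear and mitochondrial transcription have to supply parts of the same machines, while complex II is wholly nuclear. Quiescent muscle satellite cells, the stem cells of skeletal muscle, are known to be small cells with few mitochondria, and they gain mitochondrial mass when they activate and divide.

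The study compared mouse muscle stem cells and their cultured descendants by droplet single-cell RNA sequencing, with 1 library for each of 4 groups, all from mice that carry the Pax7-nGFP reporter. In such mice a nuclear GFP reports on Pax7, which is known to mark satellite cells. The fiSC library held GFP+ cells sorted from limb muscles that were pooled from 3 male mice aged 13 weeks. The ASC library held GFP+ cells from 17 tibialis anterior muscles of male and female mice of 18 to 24 weeks, sorted 3 days after an injection of 10 µM cardiotoxin, a snake toxin that destroys myofibres. The myoblast library came from unsorted cells at passage 2 in a medium with serum and 10 ng/ml basic FGF, from a male of 16 weeks. The MPC library held cells that spent 2 passages as such myoblasts and then 5 passages in a medium with 10 ng/ml basic FGF and 3 small molecules, namely Forskolin at 5 µM, Repsox at 5 µM and CHIR9901 at 3 µM, and the parental cells also came from a male of 16 weeks. Forskolin activates adenylyl cyclase and Repsox inhibits a TGF-beta receptor kinase.

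After filtering, 2192 fiSC, 6446 ASC, 2365 myoblast and 9096 MPC cells remained, with median depths of 8769, 19810.5, 22911 and 13236 unique molecular identifiers (UMIs, one per captured transcript). The retained cells summed to between 20031950 and 179085373 UMIs per library. No pair of libraries shared more than 18 cell barcodes. Levels are given as CPM, the UMIs of a gene over all UMIs of its library on the usual scale of that unit, and since each captured transcript gives one tag, they carry no term for gene length. CPM is a share of the RNA of a cell and not an amount per cell. With 1 library per group there is no replicate error and no test. Intervals are 95% intervals that cover counting error only, and at 50 CPM they span 6.24% on either side in fiSC and 2.08% in ASC. Clusters were named from marker genes as myogenic progenitor-like in every library, with macrophage-like cells making up 46.7% of the ASC library (3011 cells), and muscle differentiation-like cells 13.2% of the myoblast and 27.4% of the MPC library. Unnamed clusters held 22.0% of ASC (1417 cells), 11.6% of myoblast and 11.8% of MPC cells. Among them was ASC cluster 4 (650 cells, median depth 50990 UMIs), led by Myog, Rbm24 and Ttn. The progenitor-like ASC values thus leave out these Myog-led cells. The 14 macrophage markers summed to 10351 CPM in all ASC cells and to 217 CPM in its 2006 progenitor-like cells, so values are also given for progenitor-like cells alone. Sex, age, muscle group, sort, passage and depth differ between these libraries together with the group, and they cannot be told apart from it.

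The promoters of the nuclear members are shown first. Whether they bear on the differences between libraries was not tested. RefSeq promoter windows of 300 bases, from 250 before to 50 after the transcription start in the GRCm38.p6 build, could be matched by symbol for 69 of the 84 nuclear members. Each was searched on both strands for letters bound by 3 regulators of nuclear respiratory genes: GCGCA and GCGC parted by 1 base of any kind for NRF1, CCGGAAG for the ETS factors that include GABPA, and CAAGATGG for YY1. Overlapping matches were each counted. Of the matched members, 24.6% held the NRF1 letters, against 5.19% of the 27025 genes with a window and 7.17% of the 17491 protein-coding ones. The ETS letters stood in 24.6% of members and 9.93% of all genes, and the YY1 letters in 8.70% and 2.42%. At least one of the motifs was present in 35 of the 69 members (50.7%, against 15.9% of all genes), including 12 of 15 members of complex V, 14 of 33 of complex I and 3 of 13 of complex IV. A match of letters is a description and not a binding site.

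The windows of 4 members on which results below turn are printed 5′ to 3′ on the gene's strand, with matched motif letters in capitals. Atp5k, a small subunit of the ATP synthase membrane part that had the highest ratio of any nuclear member between ASC and fiSC, holds the NRF1 letters from 50 to 41 bases before the start and the reversed ETS letters at bases 13 to 19 after it (chr5:108434350-108434649, minus strand). Ndufa4 had the next highest ratio and holds none of these letters in its window (chr6:11907401-11907700, minus strand). Sdha, the flavoprotein subunit of succinate dehydrogenase and a member that differed little, holds the NRF1 letters 3 times (chr13:74350191-74350490, minus strand). Sdhd, a membrane anchor of the same complex, holds the NRF1 and the reversed ETS letters once each (chr9:50603800-50604099, minus strand).
Atp5k: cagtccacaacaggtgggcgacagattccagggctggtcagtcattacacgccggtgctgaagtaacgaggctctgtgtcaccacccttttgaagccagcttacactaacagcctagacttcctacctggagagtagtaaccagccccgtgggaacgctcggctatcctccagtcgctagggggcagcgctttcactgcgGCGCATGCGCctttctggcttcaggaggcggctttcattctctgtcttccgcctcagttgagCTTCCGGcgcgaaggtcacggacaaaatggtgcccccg
Ndufa4: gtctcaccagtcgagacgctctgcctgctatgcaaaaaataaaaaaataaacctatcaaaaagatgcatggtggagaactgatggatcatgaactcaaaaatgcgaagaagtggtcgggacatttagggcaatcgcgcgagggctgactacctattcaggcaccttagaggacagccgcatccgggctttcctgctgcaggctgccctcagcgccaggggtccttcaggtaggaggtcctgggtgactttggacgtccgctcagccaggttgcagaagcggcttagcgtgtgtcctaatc
Sdha: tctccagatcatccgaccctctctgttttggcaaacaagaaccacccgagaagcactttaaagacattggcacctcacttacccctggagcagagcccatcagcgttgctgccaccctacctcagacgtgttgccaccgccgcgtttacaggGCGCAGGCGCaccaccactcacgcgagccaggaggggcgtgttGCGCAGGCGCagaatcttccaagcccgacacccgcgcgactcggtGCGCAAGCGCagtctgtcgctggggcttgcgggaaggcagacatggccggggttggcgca
Sdhd: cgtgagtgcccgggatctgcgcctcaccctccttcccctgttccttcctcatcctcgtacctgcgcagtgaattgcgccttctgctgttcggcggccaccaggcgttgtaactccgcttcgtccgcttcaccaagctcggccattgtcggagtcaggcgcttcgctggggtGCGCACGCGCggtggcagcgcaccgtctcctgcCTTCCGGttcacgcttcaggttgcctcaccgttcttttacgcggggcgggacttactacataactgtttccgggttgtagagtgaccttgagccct

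Values for the 4 libraries are given below in the order fiSC, ASC, myoblast, MPC unless the libraries are named. The nuclear members took 0.888%, 3.14%, 2.696% and 2.79% of all UMIs in that order, and the mitochondrial members 2.74%, 2.26%, 4.85% and 3.82%. The genomes ranked the libraries differently. Over all retained cells the fiSC library was lowest for nuclear members and ASC for mitochondrial ones. There ASC was highest for nuclear members and myoblast for mitochondrial ones. The ranks of ASC turned with the processing. Under the alternatives its nuclear share ran from 2.36% to 3.68%, while those of myoblast and MPC did not fall below 2.40% and 2.53%. Its mitochondrial share ran from 1.76% to 3.64%, while that of fiSC did not exceed 2.95%. In UMIs of mitochondrial members per UMI of nuclear members, fiSC stood at 3.09 (95% interval 3.07 to 3.104), ASC at 0.720 (0.719 to 0.721), myoblast at 1.80 (1.79 to 1.80) and MPC at 1.37 (1.37 to 1.37). Progenitor-like cells alone gave 3.25, 0.728, 1.92 and 1.26, in the same order of libraries. How well the poly(A) capture takes up mitochondrial transcripts relative to nuclear ones is not known here, so this quantity was compared only between libraries.

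**Figure D1:**
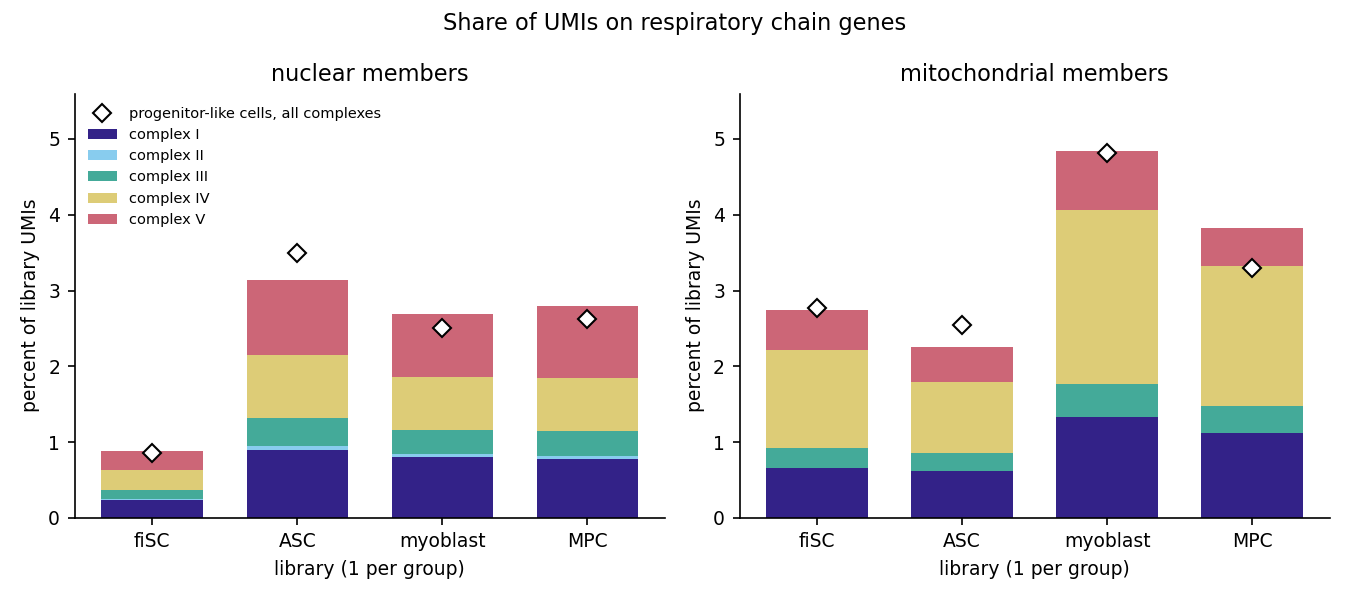
Percent of the UMIs of each library on nuclear members (left) and mitochondrial members (right), stacked by complex, with 1 library per group and diamonds for progenitor-like cells alone. The fiSC bar is the shortest for nuclear members at 0.888% and the ASC bar the shortest for mitochondrial members at 2.26%.

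Every complex took part in the nuclear difference. Nuclear complex I members summed to 2322 CPM in fiSC and 9000.4 in ASC, complex II to 143 and 484, complex III to 1207 and 3730.4, complex IV to 2608 and 8240.4, and complex V to 2596 and 9935. The myoblast and MPC sums lay between the fiSC and ASC sums for all 5 complexes, nearer to ASC, at 8027 and 7742 CPM for complex I and 8436 and 9454 CPM for complex V. Of the 82 nuclear members with at least 10 CPM in some library, 79 had their lowest level in fiSC, and for all 79 the fiSC interval lay below those of the other 3 libraries. The 3 exceptions were Cox4i2, Cox6b2 and Cox8b, tissue-restricted forms of complex IV subunits that were lowest in ASC, for 2 of them with an interval below all others. The highest level was in ASC for 51 members, in MPC for 20 and in myoblast for 11. These counts of lowest and highest levels and of separate intervals were not made over all genes, so no background share can be set beside them. At these depths the counting intervals are narrow. Cox7b2 and Cox8c, forms known from testis, stayed below 10 CPM in all libraries.

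The first comparison asks how the chain differs between satellite cells from uninjured and from injured muscle. A member was called higher or lower when its level differed by at least 2-fold on the log2(CPM + 5) scale and reached 10 CPM in one of the libraries compared, and the same rule was applied to all genes. In ASC against fiSC, 71 of the 77 nuclear members measured were higher and 0 lower, where 24.6% of all genes measured were higher and 21.1% lower. Their median log2 ratio was 1.81, against 0.08 over all genes, and all 77 ratios lay above 0. By complex, 34 of 37 members of complex I were higher, 3 of 4 of complex II, 8 of 8 of complex III, 9 of 11 of complex IV and 17 of 17 of complex V. The summed level was 3.88-fold higher for nuclear complex I, 3.38-fold for complex II, 3.09-fold for complex III, 3.16-fold for complex IV and 3.83-fold for complex V.

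Atp5k stood at 51.3, 523.9, 851.9 and 826.5 CPM, a log2 ratio of 3.23 between ASC and fiSC. Ndufa4 stood at 76.5, 730.4, 844.6 and 597.5 CPM, with a log2 ratio of 3.17. Both genes were lowest in fiSC by a wide margin, and their culture levels were closer to that of ASC. Atp5g1, one of 3 genes for the c-ring subunit through which protons turn the synthase, was at 94.8, 718.8, 462.8 and 526.8 CPM (log2 ratio 2.86 between ASC and fiSC). Its 2 paralogs encode the same mature peptide, and Atp5g2 rose from 213 to 643 CPM and Atp5g3 from 100.3 to 479 CPM, so that all 3 genes were higher in ASC, although how reads shared by these near-identical copies were counted is not given in the sources used here. Ndufa3 (2.80), Ndufb7 (2.73), both accessory subunits of complex I, and Uqcr11 (2.73), a small subunit of complex III, completed the 6 highest.

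The 6 lowest ratios were still above 0. Cox7a2l, a factor that joins complexes III and IV into supercomplexes, stood at 210.5, 249, 269.8 and 355 CPM (log2 ratio 0.24 between ASC and fiSC). Sdha differed by 0.45 (58.4 and 81.5 CPM) while the other subunits of complex II differed more, Sdhd most of all with 18.4, 143.7, 44.5 and 89.3 CPM. Sdhd was thus highest in ASC by a clear distance, and ASC exceeded fiSC by 7.82-fold. Ndufa6 (0.57), the core subunit Ndufs1 (0.82), Cox4i1 (0.94), the common form of the complex IV regulatory subunit, and the NADH-binding core subunit Ndufv1 (0.99) were the others. None of these 6 passed the rule.

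The 13 mitochondrial genes did not share this difference. In ASC against fiSC, 0 of the 13 were higher and 1 lower, where 24.6% of all genes were higher and 21.1% lower. The median log2 ratio of the 13 was -0.15. This median changed sign with the processing, from -0.73 in cells of 5000 to 20000 UMIs to 0.44 in progenitor-like cells of that depth and 0.11 with TMM scaling (a method that trims extreme genes), so no direction is given for the group. mt-Co1, the catalytic subunit of complex IV, was at 5072 CPM in fiSC and 3069.5 in ASC (log2 ratio -0.72), mt-Co3 at 4767 and 3105 (-0.62), and mt-Co2 at 3101 and 3259.99 (0.07). None of these 3 core subunits passed the rule, where 9 of 11 measured nuclear subunits of the same enzyme were higher. mt-Nd1 stood at 1668 and 1674 CPM and mt-Cytb, the central subunit of complex III, at 2646 and 2391. The single gene past the rule was mt-Nd6, at 74.8 CPM in fiSC and 28.1 in ASC (log2 ratio -1.27). Its log2 ratio was -0.56 at the nearest to 0 and -1.68 at the farthest under the alternatives. mt-Nd3 (271.5 and 476.0 CPM, 0.80) and mt-Atp8 (91.8 and 174.4 CPM, 0.89) had the highest ratios.

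**Figure D2:**
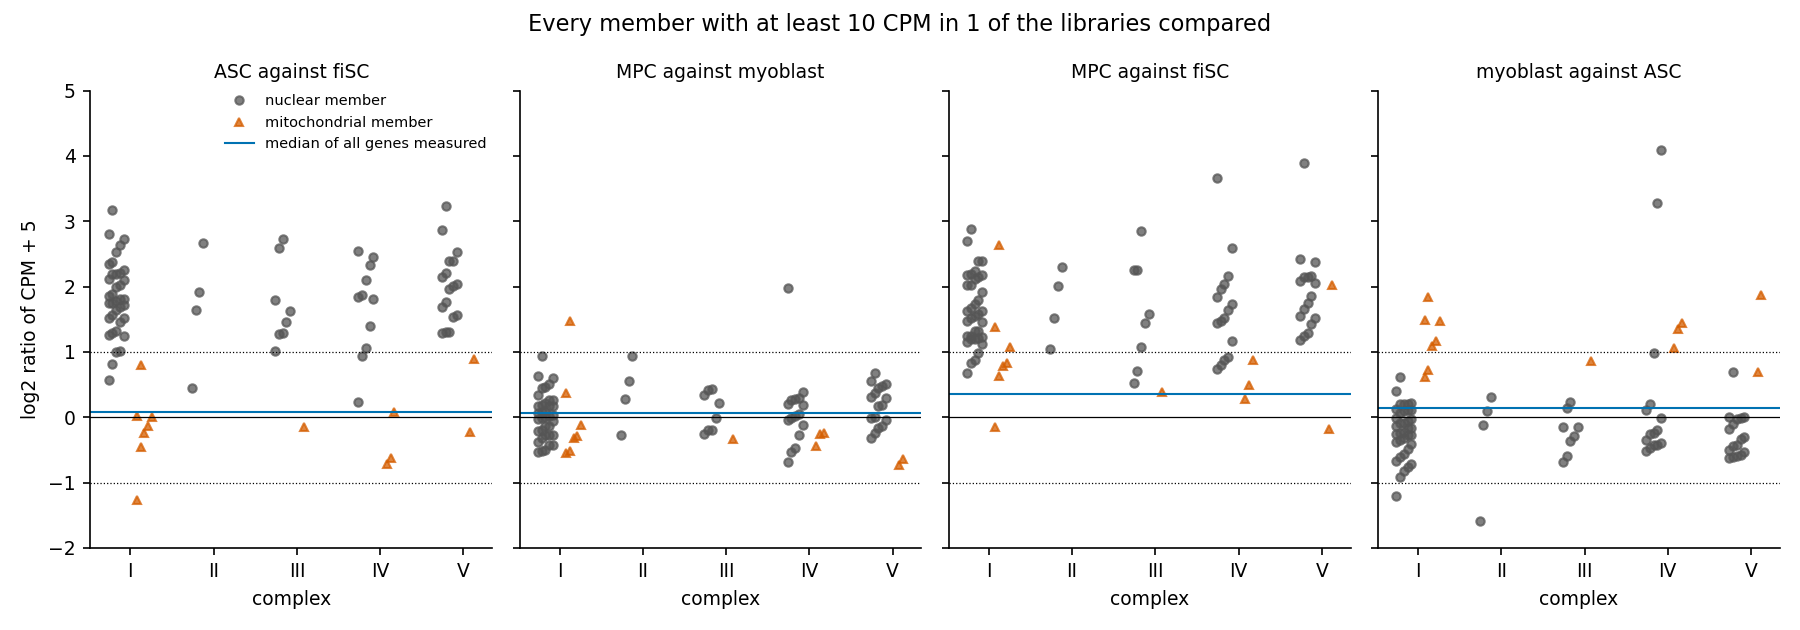
Log2 ratio of CPM + 5 for every measured nuclear member (circles) and mitochondrial member (triangles), by complex, in 4 comparisons that partly share libraries. Dotted lines mark 2-fold and the blue line the median of all genes, and in ASC against fiSC the circles lie between 0.24 and 3.23 while the triangles lie between -1.27 and 0.89.

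Progenitor-like cells alone gave the same picture. In them 71 of 77 nuclear members were higher in ASC and 0 lower, where 24.0% and 24.3% of all genes were. The median nuclear log2 ratio was 2.02 against 0.00 over all genes. Of the mitochondrial members 1 was higher, mt-Atp8 with 1.20, and 1 lower, mt-Nd6 with -1.15. Depth and cell cycle moved with the group: the progenitor-like cells had median depths of 8738 UMIs in fiSC and 47097 in ASC, and all 20 genes of a G2/M list were higher in ASC with a median log2 ratio of 3.56. Among progenitor-like cells without a UMI of those G2/M genes after thinning to 2000 UMIs, nuclear members took 0.849% of UMIs in 1984 fiSC cells and 3.46% in 108 ASC cells, whose median depths were 8815 and 17150 UMIs. The part of cell cycle and depth in the difference was not tested. Progenitor-like cells of 5000 to 20000 UMIs numbered 1745 in fiSC and 205 in ASC. Of the progenitor-like ASC clusters only cluster 8 had a median depth in that range (17632 UMIs). Among these cells, 71 of 78 nuclear members were higher and 0 lower, where 25.9% of all genes were higher and 11.1% lower. Their median log2 ratio was 1.72, and that of all genes 0.36. Scaling with TMM factors moved the median of all genes from 0.08 to 0.33, a shift shared by all genes.

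Other genes of the pathway are given from lists that, like the members, were chosen with earlier results of these data known. Their values are over all retained cells, of which 46.7% in ASC were macrophage-like, unless progenitor-like cells are named. Of 48 assembly factors measured, which help to build the complexes, 22 were higher in ASC than in fiSC and 1 lower (median log2 ratio 0.96), where 24.6% of all genes were higher and 21.1% lower. Cmc2 (3.0 and 51.6 CPM) and Coa3 (9.7 and 94.3 CPM), both factors of complex IV assembly, were the highest. Ttc19, a factor of complex III, was lower (116.4 and 37.2 CPM), and Cox11 stood at 19.0 and 17.4 CPM. Of 19 genes for electron carriers and coenzyme Q, 10 were higher and 2 lower. Cyc1, the cytochrome c1 of complex III, had 44.3 and 278.2 CPM and Coq7 13.1 and 90.8, whereas Coq8b (60.4 and 9.7) and Coq10b (197.1 and 46.0) were lower. Of 14 genes of the tricarboxylic acid cycle 8 were higher and 0 lower, led by Idh3a (22.4 and 121.5 CPM) and Suclg1 (24.6 and 125.0 CPM), with Dlst (78.3 and 68.7 CPM) and Dld (44.5 and 67.5 CPM) lowest. Atpif1, the inhibitor of the ATP synthase, stood at 86.4 and 499.8 CPM. In progenitor-like cells 31 of 49 assembly factors were higher in ASC and 1 lower (median log2 ratio 1.16). Carrier and coenzyme Q genes were higher there for 11 and lower for 2 of 19, and tricarboxylic acid cycle genes for 8 and 0 of 14. Among all genes measured in progenitor-like cells 24.0% were higher and 24.3% lower.

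Of 14 measured genes that copy and transcribe the mitochondrial chromosome, 4 were higher in ASC and 0 lower (median log2 ratio 0.32), a share of higher genes near that of all genes (24.6%, with 21.1% lower). Slirp (35.0 and 190.8 CPM), an RNA-binding protein that stabilises mitochondrial mRNA, and Ssbp1 (34.1 and 131.6) were highest, and Tfb2m (49.5 and 24.8), the transcription initiation factor, and Polg (24.8 and 13.7) lowest. Of 11 nuclear regulators measured, 2 were higher and 5 lower, to be read against the same shares of all genes. Esrra, a nuclear receptor that drives respiratory genes, stood at 2.2, 26.8, 28.5 and 31.7 CPM, and its coactivator Ppargc1b at 5.5, 25.6, 38.4 and 84.9. The related receptor Esrrg ran the other way, at 78.5, 1.0, 4.0 and 10.3 CPM, and so did Myc at 400.9, 19.4, 20.8 and 34.3. Both of these were highest in fiSC.

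The second comparison sets the MPC library beside the myoblast library. The medium, the number of passages and the culture differ together between them and cannot be told apart, and the labels used here do not say that the MPC cells came from the sequenced myoblasts. The nuclear members differed little: of 82 measured, 1 was higher in MPC and 0 lower, where 6.85% of all genes were higher and 6.44% lower. Their median log2 ratio was 0.05, the median of all genes was 0.06, and 47 of 82 ratios lay above 0. The sign of the median was negative in 3 of 18 alternatives, so the group has no direction here. The single gene past the rule was Cox4i2, a form of the complex IV regulatory subunit known to be induced by low oxygen, at 1.45, 0.408, 1.72 and 21.4 CPM. The MPC library alone was high. The next were Ndufv3 (113.3 and 221.8 CPM, log2 ratio 0.94), Sdhd (44.5 and 89.3, 0.93), Atp5g2 (0.68), Ndufc2 (0.62) and Ndufv2 (0.61), and the lowest were Cox6a2 (-0.68), Ndufa2 (-0.54), Cox8b (-0.53), Ndufa11 (-0.51), Ndufa4 (-0.50) and Cox5a (-0.48). The ratio of Cox6a2 turned with the cells used, from -1.55 to 1.11 over the alternatives, and in progenitor-like cells it stood at 2.44 CPM in myoblast and 7.85 in MPC. None of these 11 passed the rule over all cells, and Ndufv3 passed it in progenitor-like cells (88.6 and 199.5 CPM, 1.13). In progenitor-like cells 2 of 80 nuclear members were higher, Cox4i2 and Ndufv3, and 0 lower, where 7.64% and 7.75% of all genes were.

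In MPC against myoblast 11 of 13 mitochondrial members had ratios below 0, none past the rule. Their median log2 ratio was -0.32 and stayed between -0.65 and -0.23 over the 18 alternatives. mt-Co1 stood at 8323 CPM in myoblast and 6128 in MPC, and mt-Atp6, the proton channel subunit of the ATP synthase, at 7167 and 4581. The exceptions were mt-Nd3, with a log2 ratio of 0.36 that was -0.07 at its lowest under the alternatives, and mt-Nd6. mt-Nd6 was at 74.8, 28.1, 69.4 and 202.5 CPM, and it was the only mitochondrial member past the rule, with a log2 ratio of 1.48 (1.29 to 1.85 over the alternatives). The MPC level was above that of every other library.

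mt-Nd6 is the only one of the 13 that is encoded on the light strand of the mitochondrial chromosome. Of every 1000 UMIs on mitochondrial members, mt-Nd6 held 2.73, 1.25, 1.43 and 5.30. In progenitor-like cells these values were 2.75, 1.24, 1.43 and 7.01. Between muscle differentiation-like and progenitor-like MPC cells its log2 ratio was -0.36, and those of the other 12 mitochondrial members lay above 0. Whether the authors' counting used strand is not given in the sources used here, and without it reads of mt-Nd6 and antisense reads over it cannot be told apart. mt-Rnr2, the large ribosomal RNA of the same chromosome, stood at 5174, 4191, 7487 and 3313.5 CPM, and was lower in MPC than in myoblast (log2 ratio -1.17), as was the transfer RNA gene mt-Tt (200.2 and 79.6 CPM). Ribosomal RNA made up 20.6%, 20.0%, 16.1% and 11.0% of all mitochondrial UMIs.

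**Figure D3:**
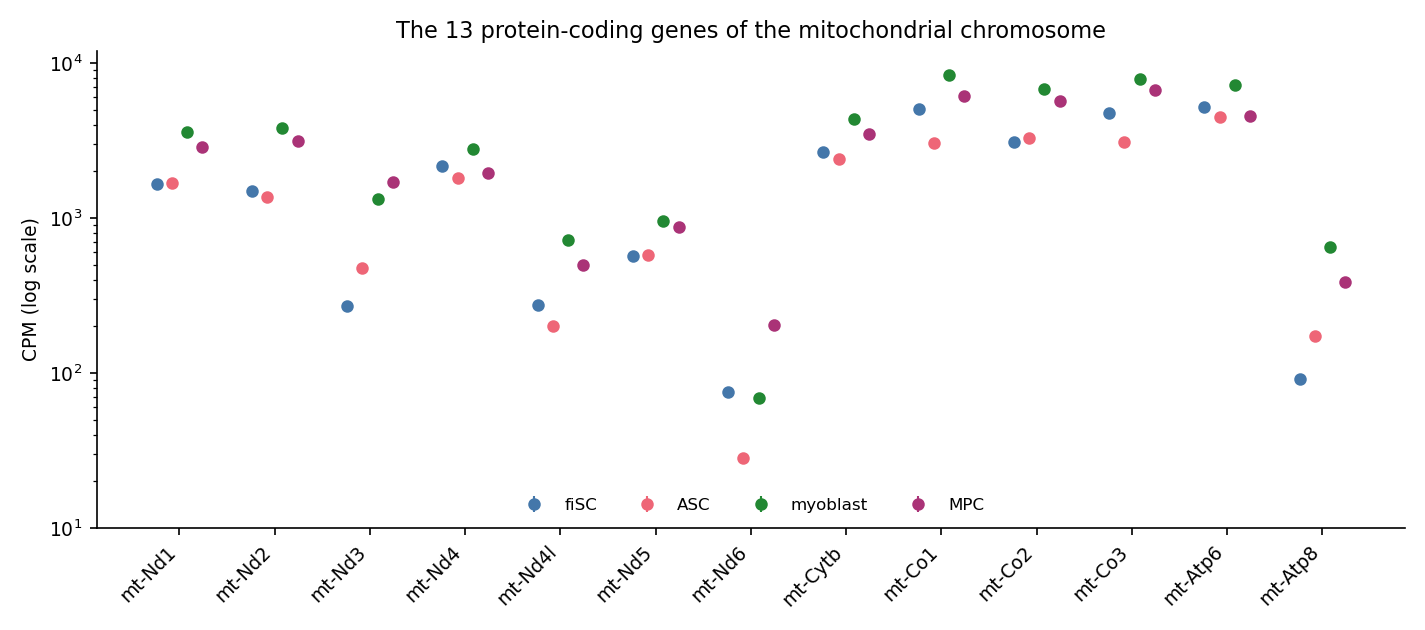
CPM (log scale) of the 13 mitochondrial members in the 4 libraries, with 95% counting intervals that are mostly smaller than the points. Myoblast is highest for 11 genes, and MPC is highest for mt-Nd3 at 1708 CPM and mt-Nd6 at 202.5 CPM.

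The make-up of the mitochondrial members differed between libraries. mt-Nd3 took 0.991%, 2.11%, 2.74% and 4.47% of their UMIs, and mt-Atp8 0.335%, 0.772%, 1.34% and 1.017%. mt-Atp6 took 19.0%, 19.7%, 14.8% and 11.99%. The reading frames of mt-Atp8 and mt-Atp6 overlap on 1 transcript, as do those of mt-Nd4l and mt-Nd4, so how reads were divided between the members of each pair bears on both values. Between fiSC and myoblast the share of mt-Atp8 was larger and that of mt-Atp6 smaller.

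Among pathway genes outside the name pattern, Ndufa4l2 stood out between MPC and myoblast. It is the paralog of Ndufa4 known to be induced by low oxygen, and had 56 UMIs in fiSC (2.80 CPM), 124 in ASC (0.692 CPM), 0 in myoblast, which allows up to 0.0544 CPM (3 counts of the library), and 23480 in MPC (172.7 CPM). Higd1a, another gene known from low oxygen, stood at 156.5 CPM in myoblast and 335.8 in MPC (log2 ratio 1.08). Of 49 assembly factors measured, 0 were higher and 0 lower between these cultures (6.85% and 6.44% of all genes), the lowest being Uqcc2 at -0.98. Of 18 carrier and coenzyme Q genes 0 were higher and 2 lower, Coq10b (50.4 and 14.9 CPM) and Gpd2 (79.0 and 33.0), and of 14 tricarboxylic acid cycle genes and 17 genes of mitochondrial transcription and replication 0 passed the rule. Among 12 regulators Ppard (15.5 and 47.2 CPM) and Ppargc1b were higher, and Ppargc1a (13.9 and 2.1 CPM), the coactivator known to raise mitochondrial mass in muscle, was lower.

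Cox4i2 and Ndufa4l2 were spread over the MPC cell classes in a similar order. Cox4i2 made up 2.96% of the UMIs of Cox4i1 and Cox4i2 together in the 5148 progenitor-like cells, 0.204% in the 2490 muscle differentiation-like cells and 10.2% in the 384 fibroblast-like cells. Ndufa4l2 made up 34.7%, 4.50% and 52.7% of the pair with Ndufa4. Both were highest in fibroblast-like and lowest in differentiation-like cells. Cox4i2 was the only 1 of 80 nuclear members past the rule between fibroblast-like and progenitor-like MPC cells (log2 ratio 1.11), with 0 lower, where 10.4% of all genes were higher and 5.31% lower. With each cell thinned to 2000 UMIs, 34.4% of progenitor-like MPC cells had an Ndufa4l2 UMI (75.8% before thinning, median depth 12574) against 7.22% of differentiation-like cells (28.8%, median depth 14117.5) and 0.0334% of macrophage-like ASC cells, a type not known for this gene (median depth 15897). In the small fibroblast-like groups of the sorted libraries Ndufa4l2 stood at 54.2 CPM (56 UMIs in 61 fiSC cells) and 113.7 CPM (52 UMIs in 12 ASC cells). An unnamed ASC cluster of 46 cells (cluster 9, median depth 2402.5) held 63 of the 124 ASC UMIs of Ndufa4l2 at 173.1 CPM, and Cox4i2 stood at 46.7 CPM there. It was led by Igfbp7, Rgs5 and Col4a1, and its leading genes included Cdh5 and Cldn5. Rgs5 was on the mural marker list used for naming, and Cdh5 and Cldn5 were on the endothelial list. By the naming rule its best list was that of macrophages (summed to 3833 CPM), so no cell type is given to this cluster. All 56 fiSC UMIs of Ndufa4l2 were in the fibroblast-like cells, and the progenitor-like cells held 0 in fiSC and 1 in ASC.

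Complex IV subunits with a heart and muscle form were higher in the muscle differentiation-like cells of both cultures, in clusters that had been made without the members. Cox6a2, the muscle form of Cox6a1, was at 0.399, 1.45, 104 and 63.1 CPM. Within the cultures it stood at 2.44 CPM in progenitor-like and 676 CPM in muscle differentiation-like myoblast cells, and at 7.85 and 207 CPM in the same classes of MPC. It took 80.2% of the Cox6a1 and Cox6a2 UMIs in the differentiation-like myoblast cells and 42.1% in those of MPC. Cox8b, the muscle form of Cox8a, took 26.3% and 8.14% of its pair in these cells and 0.225% and 0.441% in progenitor-like cells. Cox7a1, the muscle form of Cox7a2, took 6.69% and 4.35% against 0.772% and 2.16%. For all 3 muscle forms the share in differentiation-like cells was larger in myoblast than in MPC. Whether this holds between cells at the same stage of differentiation was not tested.

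The differentiation-like class was not the same mixture in both cultures. It was formed by 2 clusters in myoblast and by 4 in MPC, of which clusters 4 and 9 had median depths of 1686 and 2747 UMIs. MPC cluster 5 held 1281 of the 2490 cells, and its differentiating myocyte markers summed to 5276 CPM. Those markers summed to 33376, 25879 and 32225 CPM in MPC clusters 4, 7 and 9, and to 45281 and 17278 CPM in the myoblast clusters. Without MPC clusters 4 and 9, Cox7a1 no longer passed the rule between the MPC classes. The count of higher nuclear members then went from 3 to 2 (6.58% of all genes higher and 11.4% lower). Cox6b2, known as a testis form of Cox6b1, was at 14.3 CPM in progenitor-like and 2.31 CPM in differentiation-like myoblast cells, the only nuclear member past the rule as lower in the latter. In the sorted ASC library Cox6a2 was at 0.0863 CPM in progenitor-like cells and at 4.85 CPM in macrophage-like cells, where 0.902% of thinned cells had a UMI (6.94% before thinning, median depth 15897). Cox7a1 had a UMI in 3.07% of the thinned macrophage-like cells (20.6% before thinning) and in 1.45% of the thinned progenitor-like ASC cells. Its share of thinned differentiation-like cells was 9.32% in myoblast and 4.50% in MPC.

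**Figure D4:**
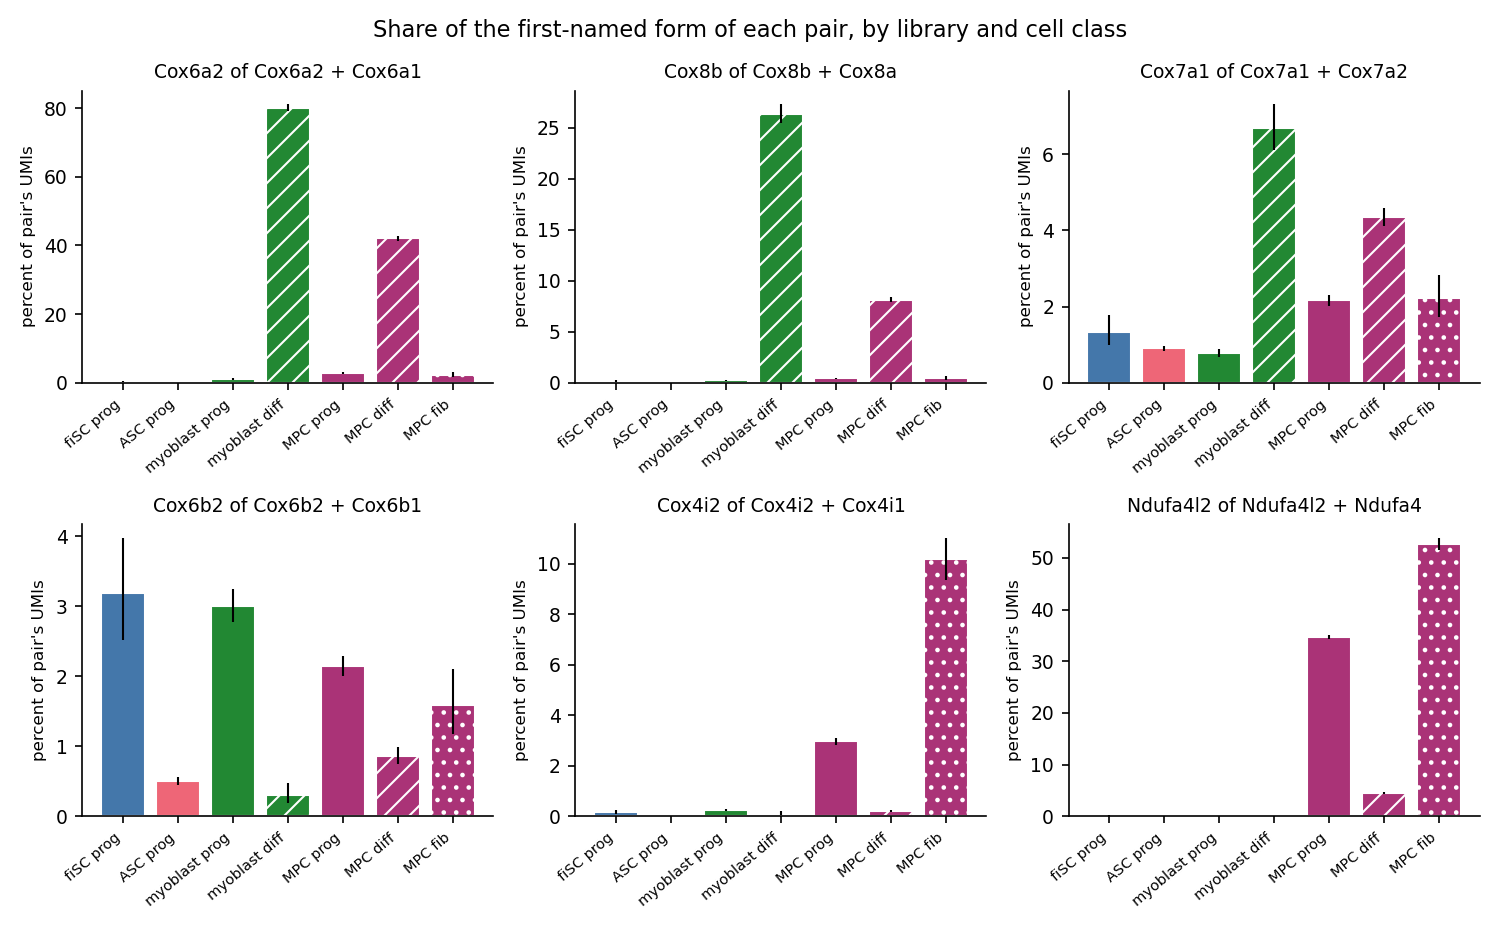
Percent of the UMIs of an isoform pair that fell on the form named first above each panel, in progenitor-like (prog), muscle differentiation-like (diff) and fibroblast-like (fib) cells, with 95% counting intervals and a separate axis range for each pair. The hatched differentiation-like bars are tallest for Cox6a2 (80.2% in myoblast), Cox8b and Cox7a1, and the dotted fibroblast-like MPC bar is tallest for Cox4i2 (10.2%) and Ndufa4l2 (52.7%).

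Beyond the muscle forms, differentiation-like cells had ratios above 0 for most members. In myoblast, 77 of 81 nuclear ratios between differentiation-like and progenitor-like cells lay above 0, with a median of 0.45 against -0.31 over all genes. Past the rule were 4 higher and 1 lower, where 8.53% of all genes were higher and 17.2% lower, and the fourth higher gene beside the muscle forms was Ndufv3 (log2 ratio 1.42). In MPC, 77 of 82 ratios lay above 0 with a median of 0.35 against -0.18, 3 members were higher and 1 lower (6.61% and 11.7% of all genes), and the lower one was Cox4i2. Mitochondrial members had medians of 0.15 in myoblast and 0.57 in MPC with 0 past the rule. The 2 shallow MPC clusters stood apart: nuclear members took 6.62% of the UMIs of cluster 4 and 4.65% of cluster 9, and mitochondrial members 1.46% and 0.669%.

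Macrophage-like cells of the injured muscle gave the chain a smaller share of their UMIs than the progenitor-like cells beside them. Nuclear members took 2.33% of their UMIs against 3.50%, and mitochondrial members 1.50% against 2.55%. Of 78 nuclear members 2 were higher and 20 lower, where 20.8% of all genes were higher and 30.6% lower, and the median log2 ratio was -0.60 against -0.32 over all genes. The share of lower members was thus near that of all genes. The lower ones included 7 of complex V, among them Atp5g3 (-1.37) and the catalytic subunit Atp5b (-1.32), and 4 of complex III, while the complex I subunits Ndufa1 and Ndufv3 were higher (1.57 each). Of the mitochondrial members 8 were lower, led by mt-Atp8 (-1.81) and mt-Nd5 (-1.58), and the ratio nearest to 0 was that of mt-Co3 (-0.12).

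The clusters also place fiSC apart from the other libraries. In the 4 progenitor-like fiSC clusters nuclear members took 0.742% to 1.04% of UMIs, and in the progenitor-like clusters of the other libraries 2.31% to 4.004%, with no overlap. The 61 fibroblast-like fiSC cells were at 1.58%, above the progenitor-like cells of the same library. For mitochondrial members the progenitor-like clusters ran from 2.64% to 3.01% in fiSC, inside the range of 1.95% to 3.33% of ASC.

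**Figure D5:**
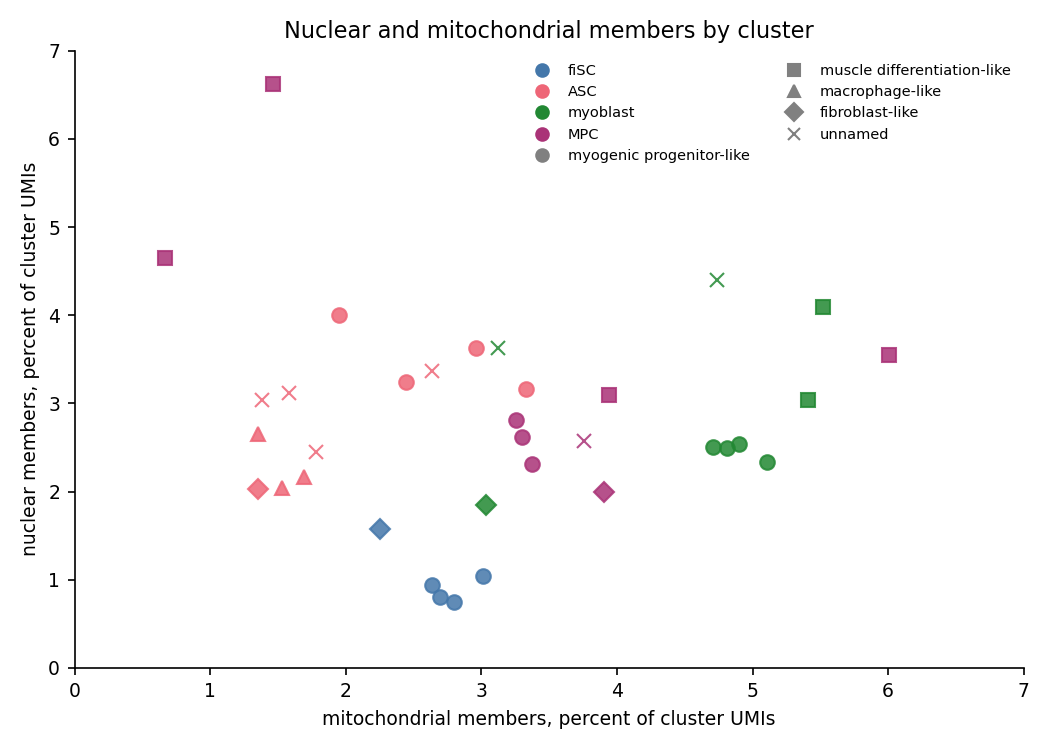
Percent of cluster UMIs on nuclear members (vertical) against mitochondrial members (horizontal), 1 point per cluster, coloured by library and shaped by class. The fiSC progenitor-like clusters lie lowest, at or below 1.04% nuclear, and 2 shallow differentiation-like MPC clusters lie at the upper left with 4.65% and 6.62% nuclear.

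The nuclear and mitochondrial sums were also taken across single cells of a library, thinned to 2000 UMIs. Spearman's rho compared the share of mitochondrial members in all UMIs with that of nuclear members in the UMIs outside the mitochondrial chromosome. In progenitor-like cells rho was 0.05 in fiSC (2088 cells), -0.21 in ASC (1999), 0.38 in myoblast (1745) and 0.30 in MPC (5122). It is given as a description, since both shares come from the same cell and depth and the counts are small. The median progenitor-like cell held 16 nuclear and 54 mitochondrial member UMIs of 2000 in fiSC, 69 and 49 in ASC, 51 and 97 in myoblast, and 53 and 61 in MPC. The quartiles were 11 and 21 nuclear UMIs in fiSC and 59 and 80 in ASC, without overlap, and 42 and 66 mitochondrial UMIs in fiSC and 36 and 67 in ASC.

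The filter on mitochondrial UMIs acts directly on these genes. Cells over 10% numbered 179, 994, 369 and 541 and were left out. Nuclear members took 0.292% of the UMIs of the cells left out in fiSC and 1.16% in ASC, below the 0.886% and 3.14% of the cells at or under the limit, and 1.86% against 2.698% in myoblast. In MPC the cells left out were higher, at 3.25% against 2.76%. ASC was thus above fiSC on both sides of the limit, while MPC and not ASC was highest among the cells left out. Without the limit the median log2 ratio of nuclear members between ASC and fiSC was 1.79 and that of mitochondrial members 0.06.

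The third comparison, MPC against fiSC, shares its libraries with the first and second. Of 82 nuclear members 72 were higher in MPC and 0 lower (27.9% and 15.8% of all genes). Their median log2 ratio was 1.63 against 0.35. The highest were Atp5k (3.88), Cox6a2 (3.66), Ndufa4 (2.89), Uqcr11 (2.84), Ndufa3 (2.703) and Cox8b (2.59), and the lowest Uqcrb (0.52), Ndufa6 (0.68), Uqcrq (0.71), Cox7a2l (0.74), Cox4i1 (0.80) and Ndufb11 (0.84). Assembly factors were higher for 25 and lower for 1 of 47, and tricarboxylic acid cycle genes were higher for 11 of 14. Here 4 of 13 mitochondrial members were higher, mt-Nd3 (2.63), mt-Atp8 (2.02), mt-Nd6 (1.38) and mt-Nd2 (1.07), and their median of 0.78 was above 0 in all 18 alternatives, and lay 0.43 above the median of all genes. That gap came down to 0.0384 in progenitor-like cells of 5000 to 20000 UMIs. The share of mitochondrial members called was near that of all genes. The nuclear median lay 1.28 above the median of all genes, and 1.16 at the lowest under the alternatives. In progenitor-like cells Cox6a2 and Cox8b were below 10 CPM in both libraries, and 70 of 80 nuclear and 3 of 13 mitochondrial members were higher and 0 lower (29.5% and 16.1% of all genes).

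The fourth comparison, myoblast against ASC, sets the cultured cells beside the cells from injured muscle and shares libraries with the others. In it, 9 of 13 mitochondrial members were higher in myoblast and 0 lower (median log2 ratio 1.17), where 14.4% of all genes were higher and 9.43% lower. mt-Atp8 (1.86), mt-Nd4l (1.83), mt-Nd2 (1.48), mt-Nd3 (1.47), mt-Co1 (1.44), mt-Co3 (1.35), mt-Nd6 (1.17, and 0.24 at the lowest under the alternatives), mt-Nd1 (1.09) and mt-Co2 (1.06) passed, and mt-Cytb (0.86), mt-Nd5 (0.72), mt-Atp6 (0.69) and mt-Nd4 (0.62) did not. Progenitor-like cells of 5000 to 20000 UMIs numbered 496 in myoblast and 205 in ASC. In them 4 of 13 passed (6.51% of all genes were higher and 11.2% lower) and the median was 0.62. There mt-Co1 (0.74), mt-Co3 (0.62), mt-Nd1 (0.67), mt-Co2 (0.41) and mt-Nd6 no longer passed. Of 81 nuclear members 2 were higher, Cox6a2 (4.08) and Cox8b (3.28), and 2 lower, Sdhd (-1.59) and Ndufc2 (-1.20), and their median of -0.23 was negative in 16 of 18 alternatives and 0.39 in cells of 5000 to 20000 UMIs. The muscle form Cox8b had 11 UMIs in ASC and 2437 in myoblast. The next nuclear members were Cox6b2 (0.99), Atp5k (0.70), Ndufb1 (0.61) and Ndufa10 (0.40) above, and Ndufb8 (-0.92), Ndufb10 (-0.83), Ndufb3 (-0.76) and Ndufb5 (-0.71) below, and 5 of the 6 lowest were accessory subunits of complex I. Under the alternatives Sdhd came as near to 0 as -0.41 and Ndufc2 as -0.50, short of the rule, and Ndufb10 turned to 0.24. In progenitor-like cells 1 nuclear member of 78 was higher, Cox6b2 (1.16), and 5 were lower, Sdhd (-1.87), Ndufc2 (-1.44), Ndufb10 (-1.14), Ndufb8 (-1.11) and Atp5g1 (-1.004), where 14.7% of all genes were higher and 4.66% lower, and 7 of 13 mitochondrial members were higher. Among progenitor-like cells of 5000 to 20000 UMIs, 0 of 78 nuclear members were higher and 1 lower (6.51% and 11.2% of all genes). The nuclear median there was -0.06. Over the alternatives Atp5g1 reached 0.50 at its highest.

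Members with and without the motif letters in their promoters overlapped in their ratios. Between ASC and fiSC, members with the NRF1 letters had a median log2 ratio of 2.11 (17 members, 0.45 to 3.23) and those without 1.83 (48 members, 0.24 to 3.17). For the ETS letters the medians were 1.91 and 1.87. The YY1 letters had the widest gap, with 2.27 (6 members, 2.00 to 2.80) against 1.81 (59 members, 0.24 to 3.23). Atp5k with NRF1 and ETS letters and Ndufa4 with none lay side by side at the top, and Sdha with 3 NRF1 matches near the bottom. Between MPC and myoblast the medians were 0.22 with and 0.01 without the NRF1 letters, with ranges of -0.51 to 0.93 and -0.53 to 0.94. Between MPC and fiSC they were 2.01 with (0.68 to 3.88) and 1.55 without (0.74 to 2.89). Whether the letters bear on the ratios was not tested.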

How the data were processed

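Droplet single-cell libraries (10x Genomics 3′ v3.1, per the labels' protocols) were measured in 4 groups with 1 library each, grouped by sample title. The deposited values are raw counts of UMIs per gene and cell barcode, made by the authors with STAR 2.7.10b on GRCm39, per the submitters' processing notes. The annotation, and whether counting used strand, are not given in the sources used here.

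Members and gene lists were chosen with earlier results of these data known. Cells needed at least 1000 UMIs, 500 genes and at most 10% mitochondrial UMIs, which left out 179 to 994 cells per library. Doublets were called with Scrublet in scanpy 1.11.5. Where its automatic threshold marked under 0.5% of cells, the cells with the highest scores were removed at 0.8% per 1000 cells, so that 47 to 799 cells were removed. Clusters (Leiden, resolution 0.5, 2000 variable genes, 30 components, 15 neighbours) were made without the members, mitochondrial, GFP, myogenic and cell-cycle genes. A cluster took the name of the marker list with the highest summed CPM among those with 3 or more markers at 20 CPM or above. It stayed unnamed when genes of another class led it or when it was shallow and led by none of its own markers. These names were rebuilt here and are not the authors'. Free RNA was not removed.

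Summed counts were divided by the library's total to give CPM. A gene counted as higher or lower with a 2-fold difference of CPM + 5 that reached 10 CPM in either library. The pseudocount understates the change of low genes. Intervals (exact Poisson and Clopper-Pearson, conditional binomial for ratios, scipy 1.17.1) are at 95% and cover counting error only. With 1 library per group no test was possible, and differences have no replicate check. A count of 0 is given the limit of 3 counts. Named were all 13 mitochondrial members, the 6 highest and 6 lowest nuclear ratios per comparison, isoform pairs, members below 10 CPM, and the 2 highest and 2 lowest genes of other lists. Scripts were tested on simulated data. Alternatives, 13 planned and 5 chosen after seeing the data, covered cell filters, depth, scaling (TMM, edgeR 4.0.16), pseudocount, minimum level and fold.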

Additional observations from a re-analysis of the deposited data

How the results depend on the processing

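With 1 library per group, no library could be left out, and differences between animals or cultures cannot be told from those between groups. No paired analysis was possible because each group has a single library and the labels give no shared replicate numbers. Over 18 alternatives (13 planned and 5 chosen after seeing the data) no result called with the main settings changed sign. Genes not called with the main settings could turn. Cox6a2 ran from -1.55 to 1.11 between MPC and myoblast, and Atp5g1 from -1.01 to 0.50 between myoblast and ASC. Of the counts of members past the rule, 240 stayed within 1.5 times and 48 did not. The median log2 ratio of nuclear members stayed between 1.44 and 2.05 for ASC against fiSC and between 1.51 and 1.80 for MPC against fiSC. The cause of the shifts below was not tested. At 50 CPM the counting interval spans 6.24% on either side in fiSC and 2.08% in ASC.

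For ASC against fiSC, 0 mitochondrial members were higher, but 1 without a mitochondrial limit, in progenitor-like cells, in those with no G2/M UMI and in those with the mitochondrial UMIs left out of the total, and 2 in progenitor-like cells at resolution 1.0 or of 5000 to 20000 UMIs, with TMM factors and at 1.5-fold. The 1 lower became 2 in cells of 5000 to 20000 UMIs, 0 in progenitor-like cells of that depth and 3 at 1.5-fold. For MPC against myoblast, the 1 higher nuclear member became 2 at most 5% mitochondrial UMIs and in progenitor-like cells. The count was also 2 in progenitor-like cells at resolution 1.0, of 5000 to 20000 UMIs or with the non-mitochondrial total. It was 3 in progenitor-like cells with no G2/M UMI, and over all cells 0 with a minimum of 50 CPM and 6 at 1.5-fold. The 0 lower became 2 at most 5% mitochondrial UMIs and in cells of 5000 to 20000 UMIs, and 1 in progenitor-like cells of that depth, in those with no G2/M UMI and at 1.5-fold. The 0 lower mitochondrial members became 1 in progenitor-like cells with no G2/M UMI or of 5000 to 20000 UMIs, and 2 at 1.5-fold. For MPC against fiSC the 4 higher mitochondrial members became 8 at 1.5-fold.

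For myoblast against ASC, the 2 higher nuclear members became 1 in progenitor-like cells, also in those at resolution 1.0, with no G2/M UMI or with the non-mitochondrial total. They became 1 as well over all cells with a minimum of 50 CPM. They became 0 in progenitor-like cells of 5000 to 20000 UMIs, 6 in all cells of that depth, 4 with the mean of CPM over cells and 5 at 1.5-fold. The 2 lower became 4 at most 5% mitochondrial UMIs and in progenitor-like cells with the non-mitochondrial total, 5 in progenitor-like cells, at resolution 1.0 and with TMM factors, 6 with no G2/M UMI, 1 in cells or progenitor-like cells of 5000 to 20000 UMIs and with the mean over cells, and 14 at 1.5-fold. The 9 higher mitochondrial members became 4 in progenitor-like cells of 5000 to 20000 UMIs.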
